A study of Rattus norvegicus with 24 samples.

Results

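The heat shock proteins and chaperones described here are 10 genes measured in rat heart muscle. They comprise Hspa8, the constitutive HSP70 chaperone, with its partners Dnajb1, Hsph1 and Bag3, the cytosolic HSP90 pair Hsp90aa1 and Hsp90ab1, the mitochondrial chaperonin Hspd1, and the small heat shock proteins Cryab, Hspb1 and Hspb6. Every array probe whose accession led through the rat RefSeq transcripts to one of these symbols was taken. This gave 15 of the 30367 probes, for 9 of the 10 genes and out of 15168 named genes in all. Hspa8 had 4 probes, Hsp90aa1 had 3, Hsp90ab1 had 2 and the others had 1 each, while Dnajb1 was matched by no accession and was not analysed here. All 15 probes were well above background on all 24 arrays, so all 9 genes passed the filter on dim probes and none entered through 1 group alone.

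The series examined acupuncture given ahead of myocardial ischaemia-reperfusion injury (IRI), with 4 rats (2 males and 2 females) in each of 6 groups. Rats of the Jiaji, Neiguan, Yanglingquan and Quchi groups had 7 days of acupuncture at the point that names the group, and their left anterior descending coronary artery was then tied off. Rats of the IRI group had the same ligation and no acupuncture stated in the labels, and sham rats had neither stated. No labelled group had needling away from an acupoint or acupuncture without ligation. The labels state no strain, age, reperfusion time or time of tissue collection. The labels number the samples without naming the animals, so the p-values below measure the spread between these samples. Of 16 cardiomyocyte markers 15 had a probe, and all 15 were well above background on all arrays.

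Chaperones hold, fold and refold other proteins. HSP70 proteins bind short exposed stretches and hand clients on to HSP90, J proteins such as Dnajb1 start the HSP70 cycle, and Hsph1 (HSP110) and Bag3 release the bound nucleotide and end it. Small heat shock proteins hold unfolding proteins without using ATP, and in heart muscle Cryab, Hspb1 and Hspb6 sit at the sarcomere and the desmin network. When unfolded proteins pile up, heat shock factor 1 binds heat shock elements, which are inverted repeats of the unit GAA, and drives many of these genes.

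The promoters of Hspa8, Hsph1 and Hspd1 are shown because these are the genes of the list whose window holds a full heat shock element. Of these, Hspa8 and Hsph1 were called in opposite directions between Yanglingquan and IRI. Cryab and Hsp90ab1 were called there too, the first without a window and the second without a match. Whether a match goes with a call was not tested. RefSeq windows of build GRCr8 were held for 8 of the 10 genes, and the 250 bases before each start were searched on both strands for 3 alternating units (GAANNTTCNNGAA or TTCNNGAANNTTC) and for 2 (GAANNTTC or TTCNNGAA, which every longer match also holds). The longer motif was in 3 of the 8 windows, those of Hspa8, Hsph1 and Hspd1, and in 0.663% of all 33469 RefSeq windows. The shorter one was in 7 of 8, all but Hsp90ab1, against 13.5% of all windows. The searched bases of Hsp90ab1 begin at chr9:22930173 and run past the annotated gene start at 22930249, so they lie partly within the gene. No window was held for Cryab or Hsp90aa1. Below are the 250 bases before the start of Hspa8 (chr8:50080264-50080513, plus strand) and of Hsph1 (chr12:10427118-10427367, plus strand), and 30 bases around the element of Hspd1 (chr9:64084256-64084285, minus strand), whose window lies within the annotated gene. Capitals mark the longer motif, and in Hspd1 a pair of overlapping copies runs together. A match describes the letters of the window and is no measured binding site.
Hspa8: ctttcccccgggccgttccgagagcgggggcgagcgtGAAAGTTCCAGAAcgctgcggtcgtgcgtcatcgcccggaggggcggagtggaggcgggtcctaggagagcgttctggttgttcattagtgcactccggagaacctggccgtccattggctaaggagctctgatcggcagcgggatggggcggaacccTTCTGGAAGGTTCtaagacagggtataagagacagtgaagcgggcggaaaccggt
Hsph1: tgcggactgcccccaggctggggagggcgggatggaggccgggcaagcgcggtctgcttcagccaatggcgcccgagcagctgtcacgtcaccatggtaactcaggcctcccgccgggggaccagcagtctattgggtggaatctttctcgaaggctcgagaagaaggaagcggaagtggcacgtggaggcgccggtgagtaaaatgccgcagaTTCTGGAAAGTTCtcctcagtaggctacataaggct
Hspd1: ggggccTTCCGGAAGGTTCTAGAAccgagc

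Levels are log2 signals minus the 75th percentile of the same array, so that 0 marks that percentile, and differences are on the same log2 scale. A gene with several probes is given by its brightest one unless stated. Groups were compared by limma across all 12894 tested genes, and a difference was called at a Benjamini-Hochberg adjusted p under 0.05 over all of them. In terms of signal, 8 of the 9 genes lay in the brightest 25% of the tested genes, and Hsph1 stood at the 65.2nd percentile. Results were also computed after quantile normalization, which sets all arrays to 1 common distribution of signals.

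The file headers gave 7 scan times, and arrays of different groups shared none, so that scan and group cannot be told apart. The IRI and sham arrays were scanned on the same day and the acupoint arrays on later days, with the first Quchi array alone on another day. Differences between an acupoint group and IRI or sham therefore cannot be told apart from scan day. The share of probes well above background lay between 71.2% and 76.5% on the Yanglingquan arrays and between 75.6% and 88.8% on the others. Cardiomyocyte markers averaged between 6.33 and 6.70 on the Yanglingquan arrays, between 5.96 and 6.65 on Quchi arrays, between 6.03 and 6.28 on Jiaji arrays, between 6.11 and 6.18 on Neiguan arrays, between 5.95 and 6.06 on IRI arrays and between 5.90 and 6.15 on sham arrays. Of the 15 markers, 11 were called higher in Yanglingquan than in IRI and 0 lower, and 7 were called lower in Jiaji and 5 in Neiguan than in Yanglingquan. The shares of all tested genes called in these comparisons, in either direction, were 12.1%, 29.8% and 20.6%. Erythrocyte markers were lower in Jiaji, where 4 of 5 tested were called against IRI, 2 against sham, 3 against Yanglingquan and 3 against Quchi (medians of -0.88, -0.55, -0.63 and -0.61), and their mean level lay between 1.87 and 3.34 on Jiaji arrays, 3.11 and 3.55 on Neiguan arrays, 2.34 and 4.17 on Yanglingquan arrays, 3.0 and 3.65 on Quchi arrays, 3.17 and 3.81 on IRI arrays and 2.77 and 3.73 on sham arrays. In these Jiaji comparisons 10.2%, 24%, 29.8% and 20.9% of all tested genes were called. Neutrophil markers were higher than in sham, with 4 of 7 called in Jiaji, 5 in Neiguan, 2 in Yanglingquan, 4 in Quchi and 1 in IRI. The shares of all tested genes called there were 24%, 19.9%, 13%, 21.1% and 5.75%. Fewer cells of a type and less RNA per cell cannot be told apart in this bulk tissue, and the part of these shifts in the chaperone results was not tested beyond the scalings given below.

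Injury without acupuncture came with no called change in any chaperone of the list. Between IRI and sham, 0 of the 9 genes passed the threshold, against 5.75% of all tested genes, and 0 had an unadjusted p under 0.05. Differences ran between -0.11 for Hspa8 and 0.10 for Hspd1, with adjusted p values of 0.694 to 0.998, and the quantile scale called 0 as well (background 6.33%). Cryab, for instance, had 7.12, 7.22, 7.20 and 7.24 on the IRI arrays and 7.50, 7.08, 7.23 and 7.21 on the sham arrays, and Hspb1 had 3.43, 3.29, 3.30 and 3.69 on IRI arrays and 3.41, 3.0, 3.34 and 3.55 on sham arrays. IRI and sham arrays did not overlap for 0 of the 9 genes, and for 12.8% of all tested genes.

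Calls appeared where an acupoint group was set against another group, and few of them held after quantile normalization. Against IRI, 4 of the 9 genes were called in Yanglingquan (background 12.1%), 1 in Quchi (background 3.44%), 0 in Jiaji (background 10.2%) and 0 in Neiguan (background 5.63%). Against sham, 2 were called in Yanglingquan (background 13%), 3 in Quchi (background 21.1%), 0 in Jiaji (background 24%) and 0 in Neiguan (background 19.9%). These comparisons share their IRI or sham arrays. Between acupoints, 4 were called for Jiaji against Yanglingquan (background 29.8%), 1 for Jiaji against Quchi (background 20.9%), 4 for Neiguan against Yanglingquan (background 20.6%), 1 for Neiguan against Quchi (background 14.5%), 2 for Yanglingquan against Quchi (background 16.1%) and 0 for Jiaji against Neiguan (background 0%). Hspa8, Hspd1, Cryab and Hsp90ab1 passed the F test across the acupoint groups, 4 of 9 against 39.1% of all genes. Of 135 gene-by-comparison values 22 were called. After quantile normalization 2 were called, Hspd1 in Neiguan against Quchi (background 14.6%), which was among the 22, and Hsp90ab1 in Quchi against sham (background 22.6%).

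**Figure D1:**
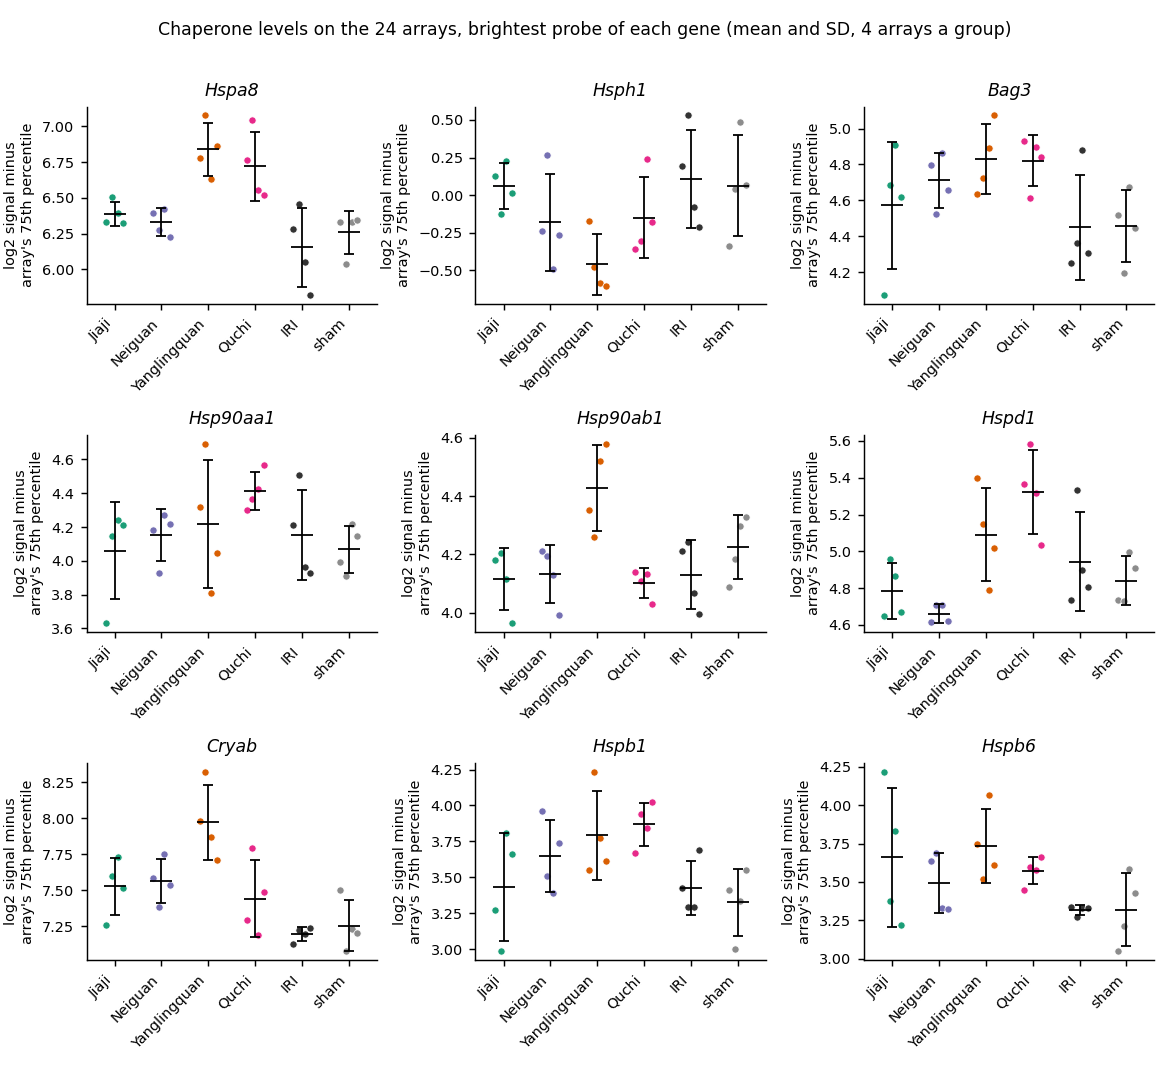
Levels of the 9 measured chaperone genes on each array, as log2 signal minus the array's 75th percentile (y axis, 1 panel a gene), by group (x axis); points are arrays, the bar is the mean and the whiskers the SD of 4 arrays. Yanglingquan has the highest mean for Cryab (arrays at 7.71 to 8.32) and Hsp90ab1 (4.26 to 4.58), and the IRI and sham arrays overlap in every panel.

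Hspa8, the constitutive HSP70 that folds new proteins and uncoats clathrin vesicles, had 6.78, 7.08, 6.63 and 6.87 on the Yanglingquan arrays and 6.77, 7.04, 6.55 and 6.52 on the Quchi arrays. It had 6.28, 6.46, 6.05 and 5.82 on the IRI arrays and 6.33, 6.04, 6.33 and 6.34 on the sham arrays. All arrays of both acupoint groups lay above all IRI and sham arrays. It rose in Yanglingquan against IRI by 0.69 ± 0.14 (SE, a 1.61-fold difference, limma adjusted p = 0.00319) and in Quchi against IRI by 0.57 ± 0.14 (adjusted p = 0.0276). Against sham it rose by 0.58 ± 0.14 in Yanglingquan and by 0.46 ± 0.14 in Quchi (limma adjusted p = 0.0105 and 0.0241). Without the second sham array, the lowest of its group at 6.04, the differences from sham were 0.49 in Yanglingquan and 0.37 in Quchi, no longer called (adjusted p = 0.051 and 0.0909). The Quchi calls also ended without the second Quchi array, at 0.46 against IRI and 0.35 against sham, and the call against IRI without IRI array 1, 3 or 4, at 0.61, 0.54 and 0.44. The Jiaji arrays, at 6.33, 6.50, 6.39 and 6.32, and the Neiguan arrays, at 6.40, 6.28, 6.42 and 6.22, lay below every Yanglingquan and Quchi array. The differences from Yanglingquan were called, at -0.45 ± 0.14 for Jiaji and -0.51 ± 0.14 for Neiguan (limma adjusted p = 0.0197 and 0.0161), and those from Quchi were not (-0.33 ± 0.14 and -0.39 ± 0.14, adjusted p = 0.0927 and 0.0659). The Jiaji call ended without Jiaji array 1 or 4 (-0.42 and -0.42) or Yanglingquan array 2 (-0.37), and the Neiguan call without Neiguan array 4 (-0.48) or Yanglingquan array 2 (-0.43). With the mean of its probes, the only Hspa8 call between groups that remained was Yanglingquan against IRI. Median scaling ended both Quchi calls. With only the groups compared, both Quchi calls ended, as did Yanglingquan against sham and Jiaji against Yanglingquan.

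On the quantile scale Hspa8 was called in 0 of the 15 comparisons. Yanglingquan arrays then had 16.54, 16.69, 16.66 and 16.67, against 16.66, 16.72, 16.43 and 16.09 on IRI arrays, with overlap and a difference of 0.17 ± 0.12 (adjusted p = 0.48). The difference of Quchi from IRI was 0.26 ± 0.12 (adjusted p = 0.247). Scaled to the cardiomyocyte markers, a choice made after the data were seen, the same differences were 0.19 and 0.26, also not called.

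The 4 Hspa8 probes did not move alike. For Yanglingquan against IRI they gave 0.69, 0.57, 0.29 and 0.35 from the brightest to the dimmest, with adjusted p values over all 25149 probes of 0.00254, 0.00774, 0.382 and 0.229, so 2 of 4 were called (background 15% of probes). For Quchi against sham the brightest gave 0.46 and the dimmest -0.42 (adjusted p = 0.0211 and 0.103), so 1 of the 4 was called (background 25.6% of probes) and the mean of the 4 probes stood at -0.03. On the dimmest probe Quchi arrays had 1.31, 1.37, 1.71 and 0.93 and sham arrays 1.33, 1.76, 2.01 and 1.92, with overlap. Group means of that probe were 1.76 in sham, 1.29 in IRI, 1.56 in Jiaji, 1.34 in Neiguan, 1.64 in Yanglingquan and 1.33 in Quchi. Which transcripts each probe detects was not tested.

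**Figure D2:**
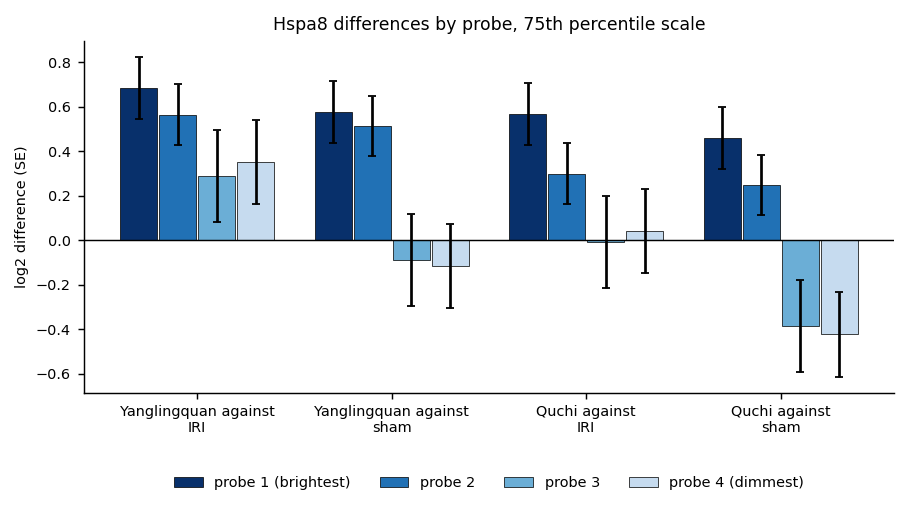
Log2 differences of Hspa8 (y axis, bars with SE) for its 4 probes, from brightest to dimmest, in 4 comparisons of Yanglingquan or Quchi with IRI or sham (x axis). The brightest probe is above 0 in all 4, at 0.46 to 0.69, while the dimmest is at -0.42 for Quchi against sham.

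Hsph1, the HSP110 exchange factor of HSP70, went the other way. It had -0.17, -0.48, -0.59 and -0.61 on the Yanglingquan arrays, 0.19, 0.53, -0.08 and -0.21 on the IRI arrays and -0.34, 0.04, 0.48 and 0.06 on the sham arrays. In Yanglingquan 3 arrays lay below all IRI and sham arrays, and 1 lay inside both ranges. It fell against IRI by 0.57 ± 0.18 on the log2 scale (SE, limma adjusted p = 0.0464), and stood at -0.52 ± 0.18 against sham (adjusted p = 0.0638). Jiaji arrays had 0.13, -0.13, 0.22 and 0.01, all above the Yanglingquan arrays, and the difference was called at 0.52 ± 0.18 (adjusted p = 0.037). The call against Yanglingquan ended in 6 of the 24 fits that left out 1 array, without Jiaji array 1, 3 or 4 or Yanglingquan array 2, 3 or 4. The call against IRI ended in 12 of the 24 fits that left out 1 array, lowest without the second IRI array at -0.45. The quantile scale called neither difference, -0.55 ± 0.18 for Yanglingquan against IRI and 0.51 ± 0.18 for Jiaji against Yanglingquan (adjusted p = 0.0739 and 0.0601). Scaling to cardiomyocyte markers gave -1.06 against IRI and -0.99 against sham, both called (adjusted p = 0.000897 and 0.00159). That scaling called 55.5% and 56.3% of all genes in these comparisons and put the median of all genes at -0.53 in both.

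Bag3, which links HSP70 to small heat shock proteins and clears damaged filamin at the Z disc, was called in 0 of the 15 comparisons on either scale. It had 4.63, 4.73, 4.89 and 5.07 on Yanglingquan arrays, 4.93, 4.61, 4.90 and 4.84 on Quchi arrays, 4.25, 4.36, 4.88 and 4.31 on IRI arrays and 4.52, 4.19, 4.68 and 4.45 on sham arrays. IRI array 3, at 4.88, lay among the Yanglingquan and Quchi arrays and the other IRI arrays below them, while sham overlapped with both. The widest difference was 0.38 ± 0.15 for Yanglingquan against IRI (adjusted p = 0.114), and it was 0.14 ± 0.15 on the quantile scale.

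Of the HSP90 genes, which finish the folding of kinases and steroid receptors, Hsp90ab1 rose in Yanglingquan. Yanglingquan arrays had 4.35, 4.26, 4.52 and 4.58, IRI arrays 4.21, 4.24, 4.07 and 4.0 and sham arrays 4.09, 4.18, 4.30 and 4.33. All Yanglingquan arrays were above all IRI arrays, by 0.30 ± 0.09 on average (SE, limma adjusted p = 0.0451), and they overlapped with sham (0.20 ± 0.09, adjusted p = 0.161). This call ended in 15 of the 24 fits that left out 1 array. Jiaji and Neiguan were lower than Yanglingquan, at -0.31 ± 0.09 and -0.30 ± 0.09 (limma adjusted p = 0.0177 and 0.0327), and Yanglingquan was higher than Quchi by 0.33 ± 0.09 (adjusted p = 0.023). Every Jiaji array (4.18, 4.20, 4.11 and 3.96), Neiguan array (4.21, 4.19, 4.13 and 3.99) and Quchi array (4.14, 4.11, 4.13 and 4.03) lay below every Yanglingquan array. These calls ended without Jiaji array 4 or Yanglingquan array 4 for Jiaji (-0.27 and -0.27), without Neiguan array 2 or 4 or Yanglingquan array 3 or 4 for Neiguan, and without Quchi array 2 or 4 or Yanglingquan array 3 or 4 for Quchi.

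The direction of Hsp90ab1 was not fixed across scalings. Scaled to cardiomyocyte markers its difference between Yanglingquan and IRI was -0.20, and on the quantile scale 0.09 ± 0.11, neither called. The quantile scale called 1 other difference, Quchi against sham at -0.32 ± 0.11 (adjusted p = 0.0457), with 14.10, 14.04, 14.23 and 14.05 on Quchi arrays and 14.19, 14.49, 14.49 and 14.54 on sham arrays. There 1 sham array lay inside the Quchi range. On the 75th percentile scale that difference was -0.12 ± 0.09 (adjusted p = 0.37). The second Hsp90ab1 probe was called in none of these comparisons (0.21 for Yanglingquan against IRI).

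Hsp90aa1, the stress-inducible HSP90, was called in 0 comparisons by its brightest probe on either scale. Quchi arrays had 4.30, 4.36, 4.43 and 4.56, Yanglingquan arrays 4.32, 4.69, 3.81 and 4.05, IRI arrays 4.21, 4.51, 3.97 and 3.93 and sham arrays 3.99, 3.91, 4.22 and 4.15. The Yanglingquan arrays spread over both sides of the IRI arrays. All Quchi arrays lay above all sham arrays, with a difference of 0.35 ± 0.17 (adjusted p = 0.162), or 0.15 ± 0.14 on the quantile scale. Its second probe was lower in Yanglingquan than in Quchi, at -0.72 (limma adjusted p over all probes = 0.0137, background 19.5% of probes), with 3.43 and 3.66 on Yanglingquan arrays and 4.15, 4.11, 4.19 and 4.32 on Quchi arrays. That value rests on Yanglingquan arrays 3 and 4, because the spots of arrays 1 and 2 were marked as outliers by the scanner software and left out. On the brightest probe arrays 1 and 2 were the highest of their group, at 4.32 and 4.69 against 3.81 and 4.05. The third probe also had them highest, at 3.08 and 3.09 against 2.36 and 2.64.

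Hspd1 gave the 1 difference between groups, of the 22 called, that was called under every alternative run. Its protein, HSP60, forms the mitochondrial folding chamber together with Hspe1. Neiguan arrays had 4.62, 4.71, 4.71 and 4.62 and Quchi arrays 5.37, 5.59, 5.32 and 5.03, without overlap. The difference was -0.66 ± 0.15 (SE, limma adjusted p = 0.00661), that is 0.632 times the Quchi level. On the quantile scale Neiguan arrays had 14.75, 15.04, 14.82 and 14.75 and Quchi arrays 15.30, 15.44, 15.44 and 15.08, again without overlap, and the difference was -0.48 ± 0.12 (adjusted p = 0.0121). It ranged between -0.77 and -0.48 over 39 alternatives, and the adjusted p between 0.000978 and 0.0394. Scaled to cardiomyocyte markers it was -0.50. The Neiguan and Quchi arrays shared no scan, and the first Quchi array was scanned on another day than the rest. With that array left out the difference was called too.

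The other called Hspd1 differences were not called on the quantile scale. Quchi rose against sham, whose arrays had 4.73, 4.73, 4.99 and 4.91, by 0.48 ± 0.15 (adjusted p = 0.0236, or 0.112 on the quantile scale). That call ended without the first sham, second sham or second Quchi array, at 0.45, 0.45 and 0.39. The IRI arrays had 4.74, 5.34, 4.90 and 4.81, with the second one at 5.34 inside the Quchi range, and the difference of Quchi from IRI, 0.38 ± 0.15, was not called (adjusted p = 0.155). Jiaji arrays, at 4.65, 4.96, 4.87 and 4.67, were all below the Quchi arrays, at -0.54 ± 0.15 (adjusted p = 0.0146, or 0.0665 on the quantile scale at -0.32 ± 0.12). Neiguan was lower than Yanglingquan, whose arrays had 5.40, 5.15, 4.79 and 5.02, at -0.43 ± 0.15 without overlap (adjusted p = 0.0437, and 0.248 on the quantile scale). The Jiaji call ended without Jiaji array 1 (-0.49) or Quchi array 2 (-0.44), and the call between Neiguan and Yanglingquan in 11 of the 24 fits that left out 1 array.

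**Figure D3:**
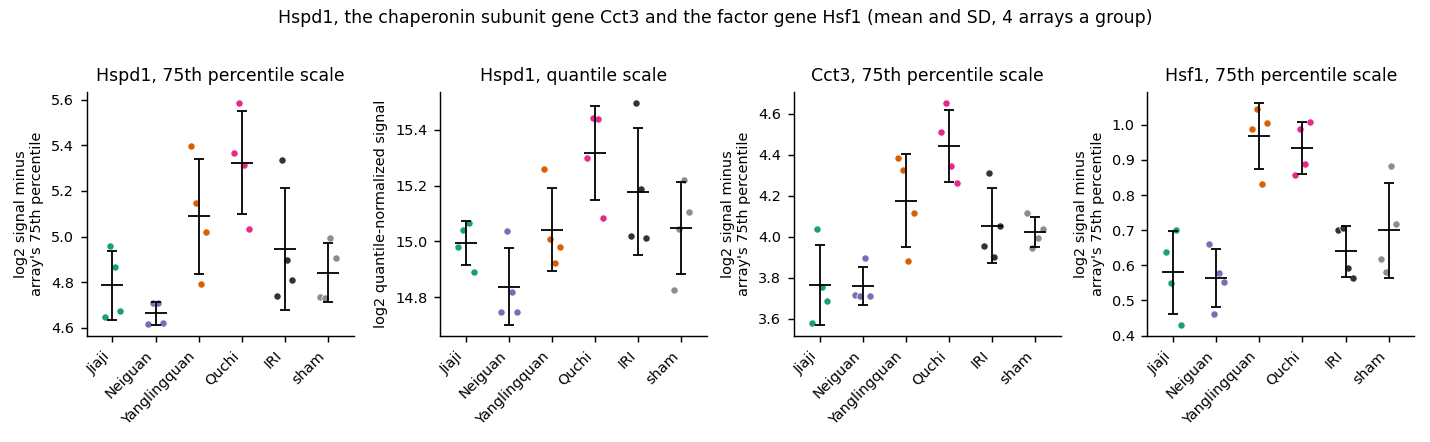
Levels by group (x axis) of Hspd1 on the 75th percentile scale and on the quantile scale, and of Cct3 and Hsf1 on the 75th percentile scale (y axes, log2); points are arrays, bars the mean and whiskers the SD of 4 arrays. Quchi arrays lie above Neiguan arrays in all 4 panels, and for Hsf1 all Yanglingquan and Quchi arrays (0.83 to 1.04) lie above all Jiaji and Neiguan arrays (0.43 to 0.70).

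Cryab, alpha B-crystallin, the small heat shock protein that guards desmin and titin, had 7.98, 8.32, 7.87 and 7.71 on the Yanglingquan arrays, 7.12, 7.22, 7.20 and 7.24 on the IRI arrays and 7.50, 7.08, 7.23 and 7.21 on the sham arrays. All Yanglingquan arrays lay above all arrays of both other groups. It rose against IRI by 0.78 ± 0.14 (SE, a 1.71-fold difference, limma adjusted p = 0.00142) and against sham by 0.72 ± 0.14 (adjusted p = 0.00278), and both calls held with each array left out in turn. Jiaji arrays had 7.26, 7.60, 7.73 and 7.52, Neiguan arrays 7.58, 7.38, 7.75 and 7.53 and Quchi arrays 7.30, 7.80, 7.19 and 7.49, each group overlapping with Yanglingquan. Jiaji and Neiguan were lower than Yanglingquan, at -0.44 ± 0.14 and -0.41 ± 0.14 (limma adjusted p = 0.0244 and 0.0479), and Yanglingquan was higher than Quchi by 0.53 ± 0.14 (adjusted p = 0.0155). The Jiaji call ended without Jiaji array 1 or 4 or Yanglingquan array 2 (-0.33, -0.42 and -0.34), the Quchi call without Yanglingquan array 2 (0.42) or Quchi array 3 (0.46), and the Neiguan call in 14 of the 24 fits that left out 1 array.

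After quantile normalization the Cryab difference between Yanglingquan and IRI was 0.11 ± 0.08 and was not called (adjusted p = 0.471). The arrays then had 17.62, 17.74, 17.86 and 17.56 in Yanglingquan and 17.54, 17.58, 17.68 and 17.54 in IRI, with overlap. Cryab is among the brightest of all tested genes, where quantile normalization hands every array its values from the same few top ranks. The part of this in the smaller difference was not tested. Scaled to the cardiomyocyte markers, the difference between Yanglingquan and IRI was 0.28, also not called. These markers share the high signal of Cryab and were themselves higher in Yanglingquan.

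Hspb1 (HSP27), which caps actin filaments, was called once, in Quchi against sham. Quchi arrays had 3.67, 3.94, 3.85 and 4.02 and sham arrays 3.41, 3.0, 3.34 and 3.55, without overlap, and the difference was 0.54 ± 0.19 (SE, limma adjusted p = 0.0428). The call ended in 6 of the 24 fits that left out 1 array, lowest without the second sham array at 0.42. IRI arrays had 3.43, 3.29, 3.30 and 3.69, with 1 of them among the Quchi arrays (0.44 ± 0.19, adjusted p = 0.198). On the quantile scale Quchi against sham gave 0.39 ± 0.18 (adjusted p = 0.126). Hspb6 (HSP20), a relaxant and kinase target in heart and smooth muscle, was called in 0 comparisons on either scale. It had 3.74, 3.52, 4.07 and 3.61 on Yanglingquan arrays and 3.34, 3.27, 3.33 and 3.33 on IRI arrays, and these did not overlap, with a difference of 0.42 ± 0.17 (adjusted p = 0.128). The 4 Jiaji arrays spread from 3.22 to 4.22, wider than any other group.

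How far the calls depended on the scaling can be read from the list's median. For Yanglingquan against IRI the median over the 9 genes was 0.37, against 0.11 for the brightest 25% of all tested genes, -0.37 for the dimmest 25% and -0.04 for all tested genes. On the quantile scale it was 0.11 against 0.01 for all genes, with 0 of 9 called (background 6.61%). With median scaling it was 0.48 and 4 genes were called (background 13.1%). With scaling to cardiomyocyte markers it was -0.13 and 3 were called, all of them lower (Hsph1, Hspd1 and Hsp90aa1), a smaller share than the background of 55.5%. The last scaling moves the median of all genes to -0.53 in this comparison. For Jiaji against Yanglingquan the list's median was -0.30, and 7 genes were called with median scaling (background 47.8%), 0 with quantile normalization (background 16.4%) and 1 with cardiomyocyte markers (background 35.6%). For IRI against sham the median stayed between -0.07 and 0.02 under these scalings, and 0 genes were called under each (background 5.86% with median scaling and 2.75% with cardiomyocyte markers).

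**Figure D4:**
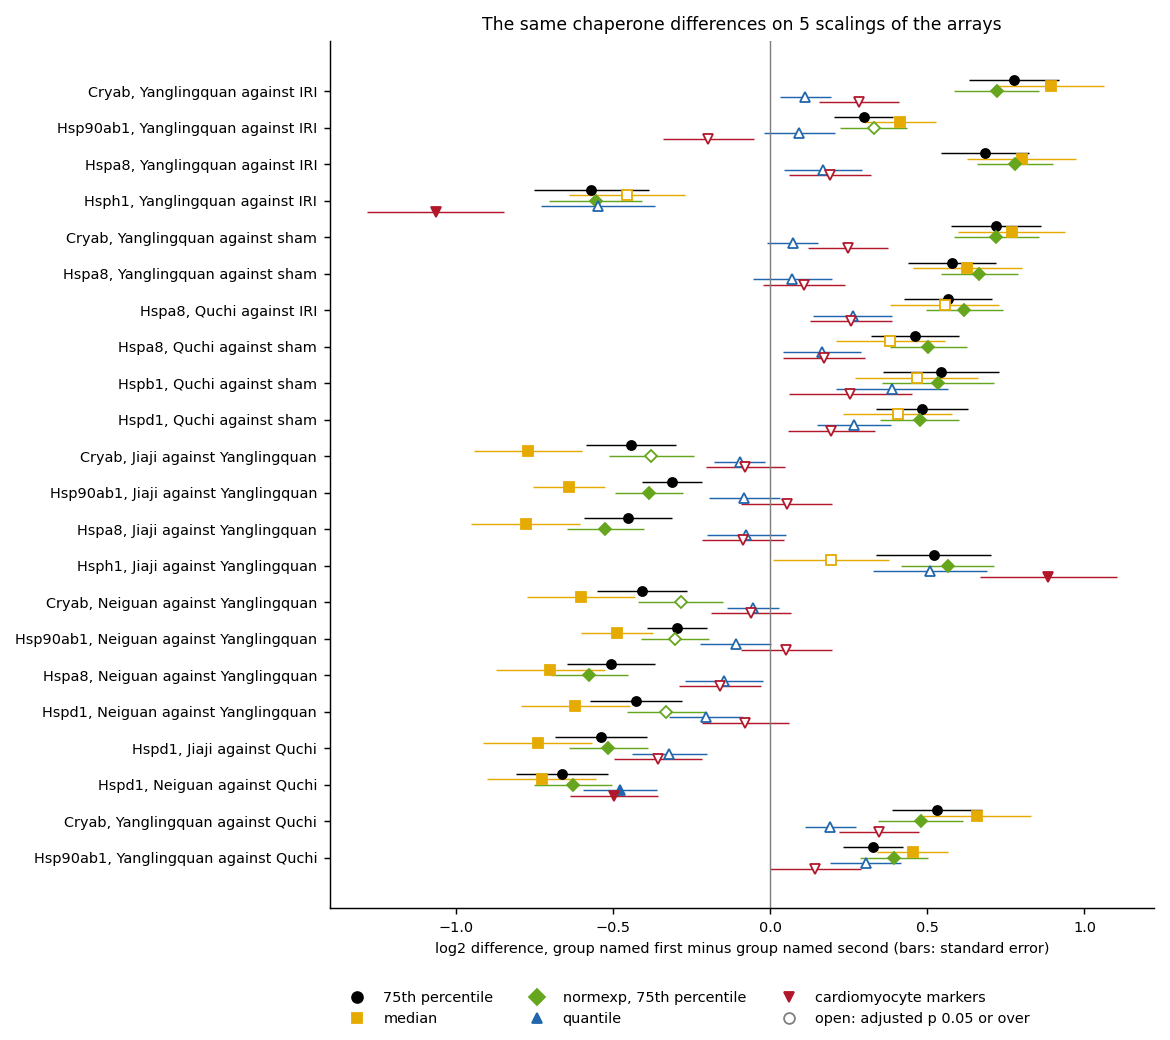
Log2 difference with SE (x axis, group named first minus group named second) of the 22 chaperone differences called on the 75th percentile scale (y axis), under 5 scalings; filled symbols are called, open ones are not. Hspd1 in Neiguan against Quchi is called under all 5, between -0.73 and -0.48, and Hsp90ab1 crosses 0 under the cardiomyocyte marker scaling in 3 of them.

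Sex and injury by sex gave no called chaperone. Females against males differed by -0.09 to 0.19 over the 9 genes, 0 of them called against 0.209% of all genes, with Bag3 the widest (adjusted p = 0.367). The difference of injury effects between the sexes was called for 0 of 9, against 0% of all genes.

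The wider chaperone network was taken from lists of 124 other chaperone and stress genes, of which 108 were tested. Between IRI and sham 2 of them were called higher and 1 lower, against 5.75% of all genes. In Yanglingquan against IRI 11 were called higher and 1 lower, a share close to the 12.1% of all genes, and in Quchi against IRI 0 were called, against 3.44%. Between acupoints, Jiaji against Yanglingquan gave 4 higher and 19 lower (29.8% of all genes), and Neiguan against Yanglingquan 3 and 19 (20.6%). Against Quchi, Jiaji gave 5 and 16 (20.9%), Neiguan 2 and 18 (14.5%) and Yanglingquan 4 and 6 (16.1%). Against sham, Jiaji gave 5 and 7 (24%), Neiguan 10 and 9 (19.9%), Yanglingquan 12 and 2 (13%) and Quchi 11 and 7 (21.1%). Against IRI, Jiaji and Neiguan each gave 0 and 1 (10.2% and 5.63%). On the quantile scale 2 were called higher and 1 lower in Yanglingquan against IRI (6.61% of all genes).

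Hspb7, a small heat shock protein of the heart, was higher in Jiaji than in sham by 1.12 ± 0.25 (SE, limma adjusted p = 0.0025) and in Neiguan than in sham by 0.91 ± 0.25 (adjusted p = 0.0145). Jiaji arrays had 3.77, 3.73, 3.82 and 4.0, Neiguan arrays 4.02, 3.20, 3.52 and 3.71, Yanglingquan arrays 2.60, 2.82, 2.88 and 2.94 and sham arrays 2.85, 2.45, 2.71 and 2.81. All Jiaji arrays were above all Yanglingquan and sham arrays, and the IRI arrays lay between 2.59 and 3.34. Quchi arrays, at 2.29, 3.58, 3.37 and 3.92, overlapped with every other group, Jiaji and Neiguan included. The difference between Jiaji and IRI was 0.76 ± 0.25 and was not called (adjusted p = 0.057), while on the quantile scale it was 0.83 and called (adjusted p = 0.0371). Jiaji was higher than Yanglingquan by 1.02 ± 0.25 and Neiguan by 0.80 ± 0.25 (limma adjusted p = 0.0048 and 0.0291). On the quantile scale the Jiaji differences were 1.19 from sham and 1.17 from Yanglingquan, both called, and each held under all alternatives run. The Neiguan call against Yanglingquan ended with median scaling and without Neiguan array 1 or 4 or Yanglingquan array 1 or 2 (the lowest value over all alternatives was 0.61), and that against sham without Neiguan array 1 and with scaling to cardiomyocyte markers (0.79). Hspb3, a muscle small heat shock protein, was lower in Jiaji than in Quchi, at -0.89 ± 0.22 and in Neiguan than in Quchi, at -0.82 ± 0.22 (limma adjusted p = 0.00877 and 0.0183). The Jiaji call ended with only the groups compared. The Neiguan call ended there too, with scan day as a fixed block, and without Neiguan array 3 or Quchi array 1 or 2.

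Bag5, another nucleotide exchange partner of HSP70, was lower in Jiaji and Neiguan than in each of the remaining groups. Jiaji arrays had -1.17, -0.77, -0.83 and -1.03 and Neiguan arrays -1.11, -1.06, -0.95 and -1.03, against -0.57, -0.33, -0.45 and -0.66 on IRI arrays and -0.45, -0.50, -0.37 and -0.57 on sham arrays. Every Jiaji and Neiguan array was below every IRI and sham array. The differences from IRI were -0.45 ± 0.11 in Jiaji and -0.54 ± 0.11 in Neiguan (limma adjusted p = 0.0103 and 0.00387), and -0.51 and -0.55 on the quantile scale, both called. Against Yanglingquan, whose arrays had -0.50, -0.56, -0.78 and -0.62, they were -0.34 ± 0.11 and -0.42 ± 0.11, and against Quchi, with -0.12, -0.29, -0.39 and -0.47, -0.63 ± 0.11 and -0.72 ± 0.11, all called (limma adjusted p between 0.000283 and 0.025). With scaling to cardiomyocyte markers neither difference from Yanglingquan was called, and that of Jiaji turned (0.029, and -0.076 in Neiguan). The Jiaji call against Yanglingquan also ended with only the groups compared and without Jiaji array 1 or 4 or Yanglingquan array 1 or 2, and the Jiaji call against Quchi with only the groups compared. The ubiquitin ligase gene Stub1 (CHIP), which marks HSP70 clients for breakdown, was lower in Jiaji than in Quchi, at -0.74 ± 0.14 and in Neiguan than in Quchi, at -0.69 ± 0.14 (limma adjusted p = 0.00184 and 0.00351), with -0.50 and -0.52 on the quantile scale. The Jiaji call ended with only the groups compared.

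Genes of the cytosolic chaperonin TRiC, which folds actin and tubulin, and of prefoldin, which feeds it, were also among those called between Neiguan and Quchi. In Neiguan against Quchi 5 of 11 tested were lower and 0 higher on either scale, with 14.5% of all genes called on the 75th percentile scale and 14.6% on the quantile scale. Cct3 had 3.72, 3.71, 3.90 and 3.71 on Neiguan arrays and 4.51, 4.65, 4.34 and 4.26 on Quchi arrays, without overlap, a difference of -0.68 ± 0.13 (SE, limma adjusted p = 0.00204) that was -0.53 on the quantile scale. Pfdn1 differed by -0.50 ± 0.12 (adjusted p = 0.00976) and -0.42 on the quantile scale, and its call ended with scaling to cardiomyocyte markers (-0.34), while that of Cct3 held under all alternatives run. Hspe1, the lid of the Hspd1 chamber, had 5.41, 5.15, 5.36 and 5.37 on Neiguan arrays and 5.81, 6.02, 5.49 and 5.53 on Quchi arrays, also without overlap, and its difference of -0.39 ± 0.18 was not called (adjusted p = 0.142). Over the 24 arrays the genes whose levels followed Hspd1 most closely on the 75th percentile scale were Cct3, Eef1d and Psmb5. Pearson's r was 0.917 for Cct3 (0.813 on the quantile scale), 0.914 for Eef1d (0.814) and 0.913 for Psmb5 (0.8). These values describe arrays that share scans and scaling.

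Of 13 tested genes of the HSP90 family and its partners, 4 were called lower in Jiaji than in Quchi, 3 in Neiguan and 1 in Yanglingquan, and of 8 tested relatives of HSP70 2 were lower in each, with 0 higher in either list (background 20.9%, 14.5% and 16.1%). Smyd1, a methyltransferase that binds HSP90 in muscle, was lower in Jiaji, Neiguan and Yanglingquan than in Quchi, at -0.64 ± 0.13, -0.45 ± 0.13 and -0.51 ± 0.13 (limma adjusted p = 0.00294, 0.0252 and 0.0101), and was called on the quantile scale in all 3. The Neiguan call ended without Neiguan array 3 or Quchi array 1 or 2, with scan day as a fixed block, with only the groups compared and with scaling to cardiomyocyte markers (-0.29), and the Yanglingquan call with median scaling. Hspa4l, an HSP110 relative of Hsph1, was also lower than in Quchi in these 3 groups, at -0.73 ± 0.21, -0.72 ± 0.21 and -0.73 ± 0.21 (limma adjusted p = 0.018, 0.0248 and 0.0199). These calls ended under 6, 7 and 5 of 39 alternatives. All 3 ended without Quchi array 1 or 2 and with scan day as a fixed block. Single calls also ended without Jiaji array 1, Neiguan array 1, 2 or 3, or Yanglingquan array 4, and the values over all alternatives lay between -0.93 and -0.53. Scaling to cardiomyocyte markers ended the Jiaji and Neiguan calls (-0.545 and -0.556). The Jiaji call also ended with only the groups compared, and the Yanglingquan call with median scaling. Trap1, the mitochondrial HSP90, was lower in Jiaji than in Yanglingquan, at -0.67 ± 0.14 and in Neiguan than in Yanglingquan, at -0.56 ± 0.14 (limma adjusted p = 0.0016 and 0.00921), with -0.45 and -0.43 on the quantile scale. Both calls ended with scaling to cardiomyocyte markers (-0.30 and -0.21).

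The transcript of Hsf1, which encodes heat shock factor 1, was lower in Jiaji and Neiguan than in Yanglingquan and Quchi. Yanglingquan arrays had 0.99, 1.04, 0.83 and 1.0 and Quchi arrays 0.86, 0.99, 0.89 and 1.01, with 0.64, 0.55, 0.70 and 0.43 on Jiaji arrays and 0.66, 0.46, 0.58 and 0.55 on Neiguan arrays. Jiaji was lower than Yanglingquan, at -0.39 ± 0.09 and than Quchi, at -0.35 ± 0.09 (limma adjusted p = 0.00419 and 0.0128), and Neiguan, at -0.40 ± 0.09 and -0.37 ± 0.09 (adjusted p = 0.00573 and 0.0142). All 4 were called on the quantile scale too, and 0 of them with scaling to cardiomyocyte markers, where they were -0.02, -0.17, -0.06 and -0.21. With only the groups compared both Jiaji calls ended and that of Neiguan against Quchi, which also ended without the second Quchi array. IRI arrays had 0.70, 0.70, 0.59 and 0.56, and Yanglingquan was higher by 0.33 ± 0.09 (adjusted p = 0.0263, and 0.31 on the quantile scale with an adjusted p of 0.0396). The call against IRI ended under 8 of 38 alternatives: with the authors' values, with only the groups compared, without IRI array 3 or 4 or Yanglingquan array 1, 2 or 4, and with scaling to cardiomyocyte markers, where the direction turned (-0.17). Hsf2 was lower in Jiaji than in Quchi, at -0.57 ± 0.12 (adjusted p = 0.00392), where another Hsf2 probe stood at 0.60 and the mean of its probes at 0.013. That call also ended with only the groups compared and with scaling to cardiomyocyte markers (-0.39). These are transcript levels of the factors, and their activity was not measured.

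Among the other genes, those most alike each member over the 24 arrays differed from member to member. Cryab was followed by Myl3, a ventricular myosin light chain (Pearson r = 0.952), and by the ATP synthase subunit gene Atp5f1a (0.948), but these values were 0.351 and 0.346 on the quantile scale. Hspa8 was followed by Ldhb, a lactate dehydrogenase subunit of the heart (0.911, and 0.538 on the quantile scale). Hspb6 was followed by Got1, a transaminase of the malate-aspartate shuttle, at 0.813 and, on the quantile scale, 0.854. Hsph1 was followed by Vps45 (0.841, and 0.765 on the quantile scale), by Marchf5 (0.772 and 0.758) and by Stip1 (0.771 and 0.751), the adaptor that joins HSP70 to HSP90. The arrays share scans, depth of signal and scaling, so these values are descriptions.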

How the data were processed

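Total RNA of rat myocardium, taken with TRIzol per the labels' protocols, was hybridised to 1-colour Agilent arrays, and the 24 scanner tables were read with Feature Extraction 11.0.1.1 per the file headers (10.7.3.1 per the submitters' processing notes), with probe positions on build rn4 per the file headers. The deposited intensity of each spot is the scanner software's background-subtracted signal. The deposited flags for outlier, saturated and well-above-background spots are 0 or 1 per the file headers. The authors' processed values were deposited on a log2 scale, with every array median at 7.21, and served as an alternative. The sources used here state neither their normalization nor their centring. Their counts of called genes lay near those after quantile normalization, at 3730 against 3735 in Jiaji against sham and 1410 against 1335 in Yanglingquan against sham. These alternatives may therefore not be independent of each other.

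From these, 1377 control spots on each array and 8733 outlier spots over all 24 arrays were left out, spots of a probe were averaged, and each array's 75th percentile was subtracted on the log2 scale. Probes were named through RefSeq accessions (59.29% of 30367). A probe was kept where some group had it well above background on each of its 4 arrays, and the brightest probe stood for its gene, which left 12894 genes. limma 3.58.1 in R 4.3.3 fitted 6 groups and sex (17 residual degrees of freedom), with Benjamini-Hochberg adjustment over all genes. Quantile normalization, median scaling, normexp (on median signals), other filters and models, and each array left out in turn were alternatives, and scaling to cardiomyocyte markers was one added after the data were seen. The fit was tested on simulated data. Genes, lists and rules for naming were chosen with earlier results of these data known. Of each other list, up to 3 called genes of smallest p per comparison could be named.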

Additional observations from a re-analysis of the deposited data

Results flagged for a closer look

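On 3 of 54 groups of 4 arrays (9 genes in 6 groups) 1 array stood far from the others, by a gap to its neighbour past Dixon's critical share of the group's range, which chance does in about 1 in 20 groups. Hspa8 was lowest on the second sham array at 6.04, with the other three between 6.33 and 6.34. Hspb6 was lowest on the second IRI array at 3.27, where the whole group spans only to 3.34. Hsp90aa1 was lowest on the first Jiaji array at 3.63, against 4.15 to 4.24 on the others.

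Differences between acupoints, each given the same ligation, were called for 5 genes. Jiaji against Yanglingquan gave -0.44 for Cryab, -0.31 for Hsp90ab1, -0.45 for Hspa8 and 0.52 for Hsph1. Neiguan against Yanglingquan gave -0.41 for Cryab, -0.30 for Hsp90ab1, -0.51 for Hspa8 and -0.43 for Hspd1. Hspd1 was at -0.54 in Jiaji against Quchi and at -0.66 in Neiguan against Quchi. Yanglingquan against Quchi gave 0.53 for Cryab and 0.33 for Hsp90ab1. After quantile normalization the Hspd1 difference between Neiguan and Quchi was called and the other 11 were not.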

How the results depend on the processing

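Of the 22 chaperone differences called, 1 (Hspd1, Neiguan against Quchi) was called under all 39 alternatives run. In total 22 of 135 values were called on the 75th percentile scale, 2 after quantile normalization, 2 with the authors' deposited processed values, 26 with median scaling, 22 with normexp, 20 with the stricter filter, 19 with no filter, 13 with the mean of a gene's probes, 20 without the sex term, 23 with an intensity trend, 7 with only the groups compared, 36 with the scan as a random block and 9 with scaling to cardiomyocyte markers, which was chosen after seeing the data. The share of all genes called moved too, with a median over the 15 comparisons of 14.5% on the 75th percentile scale, 12.7% after quantile normalization, 12.8% with the authors' values, 18.4% with median scaling, 9.75% with normexp, 14% with the mean of probes, 9.24% with only the groups compared, 26% with the scan as a random block and 17.6% with cardiomyocyte markers. Counts of called genes moved as follows. Quantile normalization and the authors' values each gave 0 for Yanglingquan against IRI, Yanglingquan against sham, Quchi against IRI, Jiaji against Yanglingquan, Jiaji against Quchi, Neiguan against Yanglingquan and Yanglingquan against Quchi, and 1 for Quchi against sham and for the F test. Median scaling gave 0 for Quchi against IRI and Quchi against sham, 1 for Jiaji against sham (53.2% of all genes), 4 for Jiaji against Quchi (29.1%) and 7 for Jiaji against Yanglingquan (47.8%). Normexp gave 1 for Neiguan against IRI, Neiguan against sham and Neiguan against Yanglingquan, 2 for Jiaji against Quchi and Neiguan against Quchi, and 3 for Yanglingquan against sham. The mean of probes gave 0 for Quchi against IRI, 1 for Yanglingquan against sham and Yanglingquan against Quchi, and 2 for Jiaji against Yanglingquan, Neiguan against Yanglingquan and the F test. With only the groups compared the count was 0 for Quchi against IRI, Jiaji against Quchi and Yanglingquan against Quchi, 1 for Quchi against sham, Yanglingquan against sham, Jiaji against Yanglingquan and Neiguan against Yanglingquan, and 2 for Yanglingquan against IRI and the F test. The scan as a random block (correlation -0.0998) gave 1 for Jiaji against IRI, Neiguan against IRI and Neiguan against sham. It gave 2 for Neiguan against Quchi, 3 for Jiaji against Quchi, and 6 for Yanglingquan against IRI and Yanglingquan against sham. Each scan lay within 1 group and only Quchi spanned more than 1 scan, so this fit cannot separate scan from group. Scaling to cardiomyocyte markers gave 0 for Quchi against IRI and Jiaji against Quchi, 1 for Quchi against sham, Yanglingquan against sham, Jiaji against Yanglingquan, Neiguan against Yanglingquan and Yanglingquan against Quchi, and 2 for the F test. No filter gave 2 for Neiguan against Yanglingquan and 2 for Quchi against sham, the stricter filter and the fit without sex gave 2 for Yanglingquan against IRI, and an intensity trend gave 2 for Neiguan against Quchi. The replicate block gave 2 for Yanglingquan against IRI and 3 for Neiguan against Yanglingquan, 19 calls in all. Arrays of the same number did not deviate together on average (mean r -0.001 over 60 pairs, 17 of them over 0.1), with single pairs between -0.40 and 0.44. The labels do not say whether the numbers pair the samples, and this average cannot settle it. With 1 array left out in turn the counts ran from 2 to 5 for Yanglingquan against IRI, 0 to 2 for Quchi against IRI, 1 to 3 for Yanglingquan against sham, 0 to 3 for Quchi against sham, 0 to 4 for Jiaji against Yanglingquan, 0 to 2 for Jiaji against Quchi, 0 to 4 for Neiguan against Yanglingquan, 1 to 2 for Neiguan against Quchi, 1 to 2 for Yanglingquan against Quchi and 3 to 4 for the F test, and stayed at 0 for the others. Hspa8 in Quchi against sham turned to -0.0256 with the mean of its probes. Scaling to cardiomyocyte markers turned Hsp90ab1 (-0.20), Hspd1 (-0.35) and Hsp90aa1 (-0.43) in Yanglingquan against IRI, and Hsp90ab1 in Jiaji against Yanglingquan (0.0529) and Neiguan against Yanglingquan (0.0517). Of all genes called in Yanglingquan against IRI, 33.7% were higher on the 75th percentile scale, 53.9% with median scaling, 55.1% with normexp and 0.699% with cardiomyocyte markers, whose scaling moves the median of all genes to -0.53. Scan day as a fixed block could be fitted for IRI against sham and for acupoint pairs, where it changed no count. IRI and sham shared 1 day, as did Jiaji, Neiguan and Yanglingquan, so the term could not alter differences within these sets. It could act on the Quchi pairs only through the first Quchi array, scanned alone on another day. The cause of these changes was not tested. The number of arrays, 4 a group, limits the precision.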

Other observations

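Chaperones of the endoplasmic reticulum, which fold secreted and membrane proteins, held the lists' called injury difference in the lower direction. Calr, a calcium-binding lectin chaperone, had 1.0, 0.91, 1.17 and 1.31 on IRI arrays and 1.55, 1.62, 1.73 and 1.64 on sham arrays, without overlap. It was lower in IRI, at -0.54 ± 0.13 (SE, limma adjusted p = 0.0169, and -0.57 on the quantile scale). The call ended without IRI array 1 or 2 or sham array 3, with only the groups compared and with scaling to cardiomyocyte markers (-0.52). Quchi arrays had 0.82, 0.84, 0.86 and 1.19, lower than sham, at -0.71 ± 0.13 (adjusted p = 0.000983). Its partner Canx was lower in Quchi than in sham, at -0.83 ± 0.19 (adjusted p = 0.00404). Both Quchi calls held under all 38 alternatives run.

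Of the other stress genes, Gadd45b, a growth arrest gene, rose in IRI hearts against sham hearts by 1.15 ± 0.29 (limma adjusted p = 0.0194) and the cell cycle inhibitor gene Cdkn1a by 0.60 ± 0.13 (adjusted p = 0.0103). The Cdkn1a call held under all 39 alternatives run, and that of Gadd45b ended without IRI array 3 or 4 or sham array 3, with only the groups compared and with scaling to cardiomyocyte markers (1.17). Hmox1, which breaks down haem, was higher in Jiaji than in Quchi by 1.19 ± 0.33 (adjusted p = 0.0166), a call that ended without Jiaji array 1 or Quchi array 1 or 2 and with scan day as a fixed block. Erythrocyte markers were lower in Jiaji than in Quchi, with 3 of 5 called (background 20.9%) and a median of -0.61, and their part in this difference was not tested.

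After the group means were removed, the gap between Hspa8 probes 3 and 1 followed that between Hsp90ab1 probes 2 and 1 over 24 arrays. Pearson's r was 0.782 (two-sided permutation p = 0.00024, adjusted 6e-04 over the 5 relations of this kind) and Spearman's rho 0.743 (permutation p = 0.00038, adjusted 0.00095), and r was 0.740 without the 2 arrays farthest from the median. Among these relations, the gaps of Hspa8 probes 4 and 1 and of probes 2 and 1 gave r = 0.789 and 0.646 with that Hsp90ab1 gap. A like gap of Hsp90aa1 gave r = 0.364 with the gap of Hspa8 probes 3 and 1, and 0.019 with the Hsp90ab1 gap. The 5 relations were picked from more possible pairs of gaps, which the adjustment leaves out. No gaps of other genes were run, so the p-values cannot show a link particular to these genes. The arrays share scans and signal depth, and the cause was not tested.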
